A study of Mus musculus with 10 samples.

Results

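The 9 genes described here are Hif1a, which encodes the oxygen-regulated part of the transcription factor HIF1, and genes that cells short of oxygen are known to switch on through it: Vegfa, Adm, Bnip3, Hk2, Aldoa, Pgk1, Eno1 and Ldha. They were taken by gene symbol from the platform annotation of the arrays, with no use of their measured values, and 8 of the 9 genes had at least 1 probe set annotated to that gene alone. Those 8 genes were covered by 11 of the 12488 probe sets of the arrays, against 8251 genes covered in all. Hif1a, Hk2 and Aldoa had 2 probe sets each, and Eno1, which encodes the glycolytic enzyme enolase, was not analysed here. Signals were linear fluorescence intensities in array units, and 10 of the 11 probe sets were bright enough to be tested. The second Hk2 probe set (161313_at) averaged 4.58 units and was left out as dim.

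RNA was taken from cochleae of female mice aged 10 weeks, with a pool of 8 mice on each of 10 Affymetrix arrays, and the labels name the membranous labyrinth as the part that was dissected. Noise-exposed B6.CAST mice (2 arrays) and noise-exposed 129X1/SvJ mice (3 arrays) were exposed for 1 h to noise of 105 dB SPL in the octave around 10 kHz and killed 6 h after it. Control B6.CAST mice (2 arrays) and control 129X1/SvJ mice (3 arrays) sat in the same chamber for a sham exposure, so handling and confinement were common to all groups. 129X1/SvJ is an inbred strain known for its resistance to noise damage, and B6.CAST is a C57BL/6J strain carrying a CAST segment around Cdh23, so the strains differ at many loci. A pool gives no value for a single mouse, and a single time point was sampled.

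When oxygen is plentiful, prolyl hydroxylases mark the HIF1A protein for destruction through the VHL ubiquitin ligase. When oxygen falls, HIF1A persists, pairs with ARNT and binds short hypoxia response elements near genes of glycolysis, blood vessel growth and cell survival. The control is thus largely on HIF1A protein, which an RNA array does not measure. In the cochlea, glycolysis and respiration feed the ion pumps of the stria vascularis, and strong noise is known to reduce cochlear blood flow.

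The sequence HIF1 is known to prefer has ACGTG or GCGTG at its core, so the 250 bases before the start of each member were searched for these letters on both strands. The windows come from RefSeq (GRCm38.p6), in which all 9 members had an entry, and the window before the most upstream start was used for each gene. Windows of 7 of the 9 members (77.8%) held at least 1 match, against 10442 of the windows of 27025 genes (38.6%) and 56.7% of the windows of tested genes. The windows of Hk2, Vegfa and Ldha are printed because their noise and control arrays did not overlap in at least 1 strain, and that of Pgk1 because its arrays overlapped in both strains. Each is given 5′ to 3′ on the strand of the gene, with capitals on ACGTG or GCGTG and on their reverse complements CACGT and CACGC; where matches overlap, the capitals run together.
Hk2 (chr6:82774455-82774704, minus strand): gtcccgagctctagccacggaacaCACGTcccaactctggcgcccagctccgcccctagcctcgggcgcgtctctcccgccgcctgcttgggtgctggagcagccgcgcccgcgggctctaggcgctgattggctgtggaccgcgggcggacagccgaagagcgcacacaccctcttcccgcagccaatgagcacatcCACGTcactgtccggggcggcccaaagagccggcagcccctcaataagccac
Vegfa (chr17:46032378-46032627, minus strand): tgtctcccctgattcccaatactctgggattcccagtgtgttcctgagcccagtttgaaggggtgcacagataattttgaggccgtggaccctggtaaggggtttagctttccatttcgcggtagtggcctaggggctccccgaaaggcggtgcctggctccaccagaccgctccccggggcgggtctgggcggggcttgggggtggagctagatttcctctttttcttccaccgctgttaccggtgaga
Ldha (chr7:46845554-46845803, plus strand): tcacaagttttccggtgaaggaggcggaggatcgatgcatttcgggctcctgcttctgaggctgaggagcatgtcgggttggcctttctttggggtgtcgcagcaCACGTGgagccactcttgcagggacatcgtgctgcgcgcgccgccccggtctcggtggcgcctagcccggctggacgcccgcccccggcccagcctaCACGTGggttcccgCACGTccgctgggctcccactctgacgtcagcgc
Pgk1 (chrX:106186850-106187099, plus strand): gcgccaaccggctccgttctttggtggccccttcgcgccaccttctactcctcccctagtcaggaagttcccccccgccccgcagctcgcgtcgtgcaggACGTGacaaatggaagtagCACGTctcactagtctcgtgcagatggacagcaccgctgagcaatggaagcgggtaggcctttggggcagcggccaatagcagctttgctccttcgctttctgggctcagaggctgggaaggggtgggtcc
Hk2 and Pgk1 held 2 matches each and Ldha held 5, while Vegfa held 0 in this window. Of the members not printed, Bnip3 held 5, Hif1a 3, Adm 2, Eno1 1 and Aldoa 0. The counts depend on the start that is used. Windows before later RefSeq starts held 2 matches for Vegfa, 1 at each later start of Aldoa, 2 at each of Eno1 and 1 for Ldha. The palindrome CACGTG reads the same on both strands and was counted once on each, as overlapping matches, in Ldha, Hif1a and Bnip3. These genes thus held fewer separate sites than matches. A match describes letters in the window and not a bound site, and a window without one says nothing about HIF1 at that gene, since elements can lie elsewhere.

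The arrays were scaled alike, and they differed in quality in ways that touch some members. Correlations with the remaining arrays averaged 0.910 for noise array 1 of 129X1/SvJ, below the 0.943 to 0.955 of every other array. Gapdh, whose 3′ to 5′ signal ratio is raised in degraded or shortened RNA, had a ratio of 6.94 on the first B6.CAST noise array and 29.2 on the second 129X1/SvJ control array, against 0.790 to 1.40 on the other arrays. Cochlear markers were bright, with Coch of the spiral ligament at a mean of 15724 units and Dct of strial melanocytes at 10579 units. The hair cell factor Atoh1 was dim at 7.44 units. The summed signal of 9 neutrophil markers ran from 2338.2 to 2622.6 on B6.CAST noise arrays and from 5915.7 to 19297.8 on B6.CAST control arrays. It ran from 12272.9 to 36301.5 on 129X1/SvJ noise arrays and from 3432.6 to 20999.8 on 129X1/SvJ control arrays, with the highest value on the first noise array.

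No member passed the test in any comparison. Noise against control was tested in each strain with limma on log2(intensity + 16), with Benjamini-Hochberg adjustment over all 8695 tested probe sets and an adjusted p under 0.05 as the threshold. Of the 10 tested member probe sets, 0 passed in 129X1/SvJ, where 0.506% of all tested probe sets did, and 0 passed in B6.CAST, where 0.046% did. At an unadjusted p under 0.05, 2 member probe sets were higher with noise in 129X1/SvJ and 0 were lower, against 5.32% and 6.21% of all tested probe sets (11.5% together). The count in B6.CAST was 0, against 2.1% of all tested probe sets in either direction. For the mean of the noise effects of both strains, 0 member probe sets passed, against 0.46% of all, and 1 had an unadjusted p under 0.05, against 7.63% of all. The median log2 change of the 10 member probe sets with noise was 0.10 in 129X1/SvJ and 0.0006 in B6.CAST, beside -0.04 and 0.0065 over all tested probe sets. The labels call the arrays biological replicates, so the p-values measure the spread between pools of mice.

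**Figure D1:**
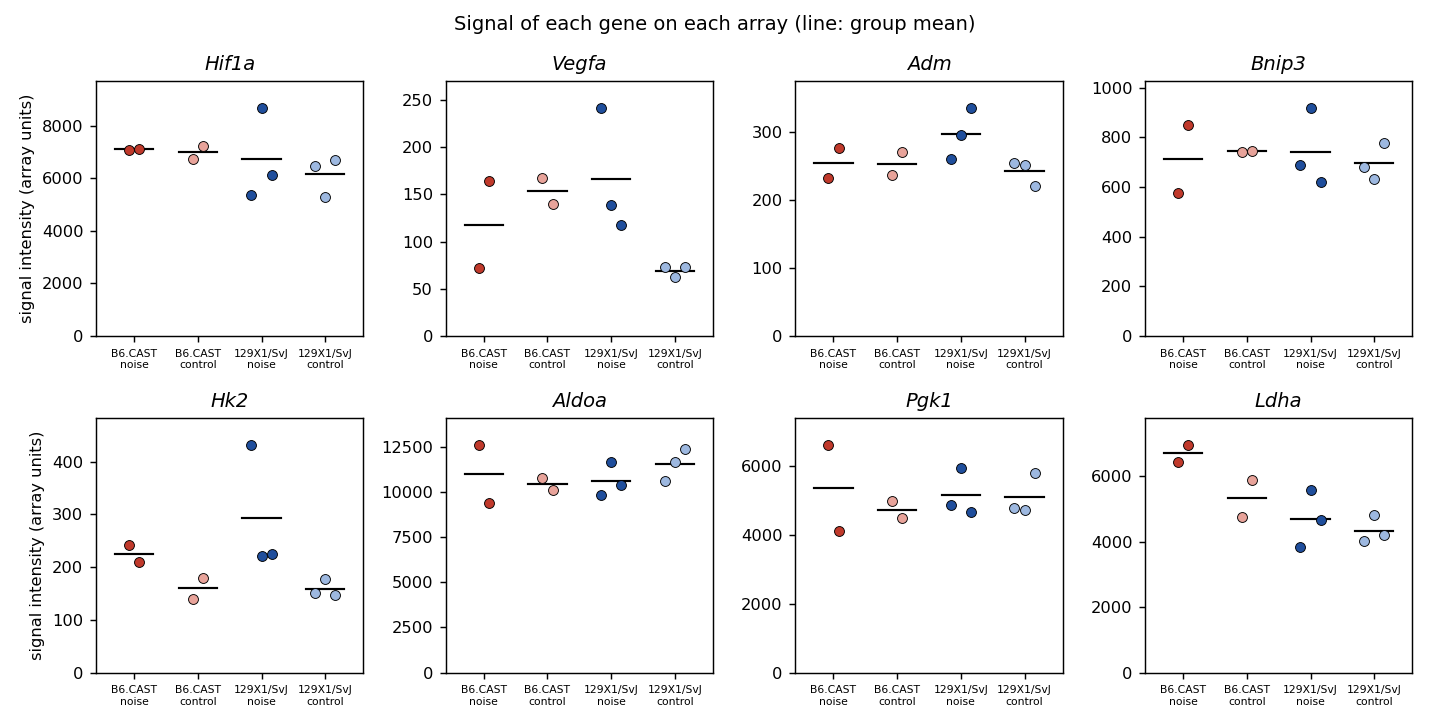
Signal intensity in array units (vertical axes, from 0) of the 8 measured member genes on each of the 10 arrays, with noise left of control within each strain and a line at each group mean. Hk2 noise arrays lie above the control arrays of the same strain in both strains, and Vegfa noise arrays lie above control arrays in 129X1/SvJ alone.

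Hk2 encodes hexokinase 2, the inducible enzyme that traps glucose in the cell as the first step of glycolysis. Its probe set 94375_at (gene on chromosome 6) read 241.7 and 209.3 units on the B6.CAST noise arrays, against 140.3 and 180.4 units on the B6.CAST control arrays. In 129X1/SvJ it read 431.7, 220.7 and 225.9 units on the noise arrays, against 150.9, 178.3 and 147.7 units on the control arrays. All 5 noise arrays were thus above all 5 control arrays, and Hk2 was the member whose groups were apart in the same direction in both strains, as were 2.69% of all tested probe sets in the higher direction. In bulk tissue, fewer cells of a type and less RNA per cell cannot be told apart, here and for every gene below. The means were 225.5 ± 22.9 units with noise and 160.3 ± 28.4 units in control B6.CAST mice (SD, n = 2 each). They were 292.8 ± 120.3 units with noise and 159.0 ± 16.8 units in control 129X1/SvJ mice (SD, n = 3 each). The control means of the strains differed by less than their spread.

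The log2 noise effect on Hk2 was 0.47 ± 0.34 in B6.CAST (SE, 95% interval -0.28 to 1.22, 1.39-fold, limma adjusted p = 1). It was 0.70 ± 0.28 in 129X1/SvJ (95% interval 0.09 to 1.31, 1.63-fold, limma adjusted p = 0.397). Over both strains the mean effect was 0.59 ± 0.22 (95% interval 0.10 to 1.07), with an unadjusted limma p of 0.0216 and an adjusted p of 0.560. The difference between the strains' effects was -0.23 ± 0.44 (B6.CAST minus 129X1/SvJ, limma adjusted p = 0.997), with an error large enough for a difference in either direction. The 129X1/SvJ effect was 0.41 without its first noise array, the one of the highest neutrophil sum. The neutrophil sums of B6.CAST are given above, and the part of these cells in the Hk2 values was not tested. The B6.CAST effect was 0.21 without its first control array and 0.73 without the second.

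Vegfa encodes the growth factor that makes endothelial cells sprout and vessels leak, and its transcript is a classic target of HIF1. Its probe set 103520_at (gene on chromosome 17) read 241.1, 139.1 and 117.2 units on the 129X1/SvJ noise arrays, against 72.9, 62.1 and 72.6 units on the 129X1/SvJ control arrays. In B6.CAST it read 71.5 and 164.1 units on the noise arrays, against 167.2 and 139.7 units on the control arrays. The groups were apart in 129X1/SvJ, where every noise array was higher, and overlapped in B6.CAST, where the first noise array alone was low. With Vegfa and Hk2, 2 of 10 member probe sets had noise arrays wholly above control arrays in 129X1/SvJ, against 6.35% of all tested probe sets. Noise arrays were wholly below for 0 of the 10, against 9.63%. Such counts are on the quantile normalized log2 scale of the test.

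The 129X1/SvJ means of Vegfa were 165.8 ± 66.1 units with noise and 69.2 ± 6.2 units in controls (SD, n = 3 each). The log2 noise effect was 0.90 ± 0.28 (SE, 95% interval 0.28 to 1.52, 1.87-fold), with an unadjusted limma p of 0.00837 and an adjusted p of 0.290. It ranged from 0.68 without the first noise array to 1.04 without noise array 3. In B6.CAST the means were 117.8 ± 65.5 units with noise and 153.4 ± 19.4 units in controls (SD, n = 2 each). The log2 effect there was -0.40 ± 0.35 (95% interval -1.15 to 0.36, limma adjusted p = 1). Without the first noise array, one of the arrays of raised Gapdh ratio, the B6.CAST effect was 0.0057, and without the second it was -0.80.

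The noise effects on Vegfa differed between the strains by -1.30 ± 0.45 on the log2 scale (B6.CAST minus 129X1/SvJ, 95% interval -2.28 to -0.32). The unadjusted limma p of this interaction was 0.0140, which placed it at rank 48 of 8695 probe sets, and the adjusted p was 0.997. No probe set passed the adjusted threshold for the difference of noise effects (limma, 0 of 8695, 0%), and 2.97% had an unadjusted p under 0.05. The difference was -0.89 without the first B6.CAST noise array and -1.70 without the second. The summed signal of 8 markers of macrophages, cells that can make VEGFA, was 5976.6, 4789.4 and 4791.7 on the 129X1/SvJ noise arrays. It was lower on the 129X1/SvJ control arrays, at 2870.2, 4680.4 and 4680.7, by a small margin except on the first. In B6.CAST it was 5631.0 to 6522.3 on noise arrays and 5671.6 to 7041.1 on control arrays. Cd14 differed most in 129X1/SvJ, at means of 937.5 units with noise and 477.2 units in controls. In B6.CAST the Cd14 means were 767.05 and 440.45 units. Cd68, Csf1r, Ctss, C1qa and C1qb were also higher with noise in 129X1/SvJ, while Lyz2 (1199.4 and 1204.4 units) and Adgre1 were not. Of the 8 markers, Adgre1 alone was left out of the tests as dim, at a mean of 24.7 units over all arrays. The part of these cells in the Vegfa values was not tested.

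By group mean of the signal before normalization, Vegfa was ordered from 129X1/SvJ noise through B6.CAST control and B6.CAST noise to 129X1/SvJ control. Neighbours in the upper part of this order overlapped in their arrays, and the lowest group overlapped B6.CAST noise through the array of 71.5 units alone. On the quantile normalized log2 scale that array, at 6.612, lay above every 129X1/SvJ control array, the highest being 6.565. The B6.CAST control mean (7.41) was there just above that of 129X1/SvJ noise (7.38). Control B6.CAST mice had a higher Vegfa signal than control 129X1/SvJ mice on every array, with a log2 difference of 0.93 ± 0.32 (95% interval 0.23 to 1.62, 1.90-fold, limma adjusted p = 0.295). It ran from 0.90 to 0.96 when any single array was left out. In noise-exposed mice the strain difference was -0.37 ± 0.32 (limma adjusted p = 0.771).

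**Figure D2:**
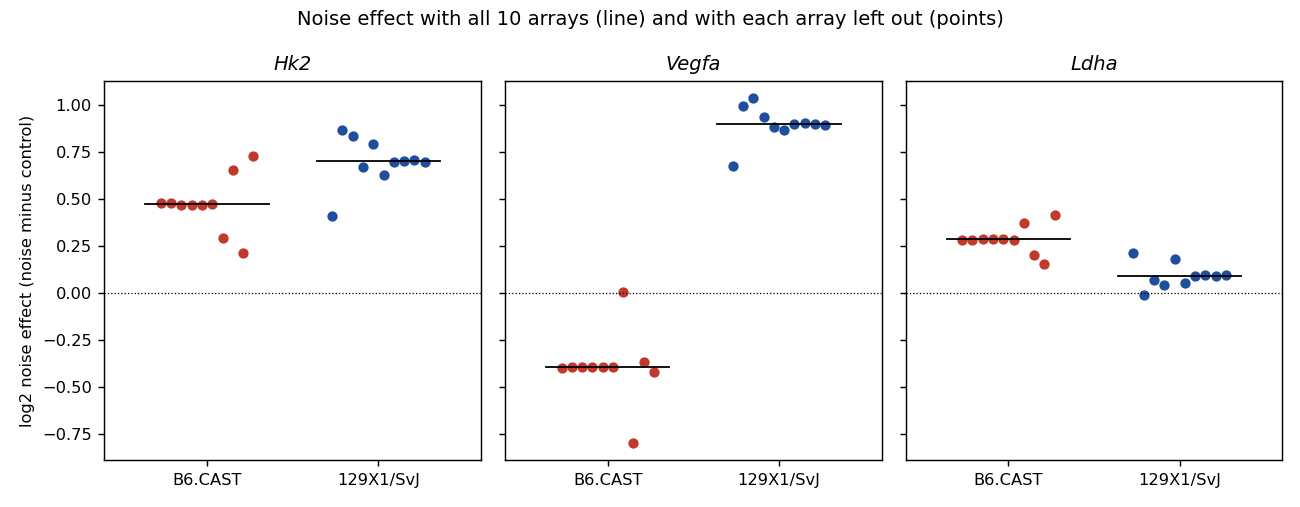
Log2 noise effect (noise minus control, vertical axis) of Hk2, Vegfa and Ldha in each strain, with a line for the effect over all 10 arrays and a point for the effect with each array left out in turn. The Vegfa effect in B6.CAST spans -0.80 to 0.0057, while that in 129X1/SvJ spans 0.68 to 1.04.

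Adm encodes adrenomedullin, a secreted peptide that widens vessels and steadies the endothelial barrier. Its probe set 102798_at (gene on chromosome 7) read 233.0 and 276.6 units on B6.CAST noise arrays, against 236.8 and 270.1 units on B6.CAST control arrays. It read 261.0, 295.1 and 335.0 units on 129X1/SvJ noise arrays, against 254.4, 251.6 and 220.8 units on 129X1/SvJ control arrays. The B6.CAST groups interleaved, and in 129X1/SvJ all 3 noise arrays were above all 3 control arrays before quantile normalization, by a margin of a few units. On the normalized scale used for the test these groups overlapped. The log2 effect was 0.19 ± 0.19 in 129X1/SvJ (95% interval -0.23 to 0.62, limma adjusted p = 0.701) and 0.02 ± 0.24 in B6.CAST (95% interval -0.50 to 0.54).

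Hif1a encodes the oxygen-regulated subunit itself. Its brighter probe set 98629_f_at (gene on chromosome 12) read 7088.2 and 7094.3 units on B6.CAST noise arrays, against 6746.3 and 7212.1 units on B6.CAST control arrays. It read 5357.9, 8656.9 and 6135.8 units on 129X1/SvJ noise arrays, against 6465.9, 5267.3 and 6688.1 units on 129X1/SvJ control arrays. The groups overlapped in both strains, and the widest spread was among the 129X1/SvJ noise arrays. The log2 effect was -0.02 ± 0.18 in B6.CAST (95% interval -0.40 to 0.37) and 0.10 ± 0.14 in 129X1/SvJ (95% interval -0.22 to 0.42, limma adjusted p = 0.800). The other probe set, 98628_f_at, gave -0.04 ± 0.20 in B6.CAST and 0.20 ± 0.16 in 129X1/SvJ. Both names end in f, the maker's mark for probes that can also match related sequences, as do both Aldoa names.

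Bnip3 encodes a mitochondrial protein that promotes mitophagy and cell death under low oxygen. Its probe set 93836_at (gene on chromosome 7) read 577.3 and 848.1 units on B6.CAST noise arrays, against 741.8 and 746.8 units on B6.CAST control arrays. It read 689.6, 917.0 and 618.2 units on 129X1/SvJ noise arrays, against 680.2, 630.8 and 776.7 units on 129X1/SvJ control arrays. The noise arrays lay on both sides of the controls in each strain. The log2 effect was -0.08 ± 0.25 in B6.CAST (95% interval -0.62 to 0.46) and 0.10 ± 0.20 in 129X1/SvJ (95% interval -0.35 to 0.54).

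Of the glycolytic enzymes below hexokinase, aldolase A, which splits fructose bisphosphate, was measured by 2 probe sets. The brighter, Aldoa 160090_f_at (gene on chromosome 7), read 12586.5 and 9398.6 units on B6.CAST noise arrays, against 10766.7 and 10091.7 units on B6.CAST control arrays. It read 9830.4, 11661.2 and 10376.1 units on 129X1/SvJ noise arrays, against 10580.3, 11663.6 and 12357.4 units on 129X1/SvJ control arrays. The groups overlapped in both strains, with log2 effects of 0.08 ± 0.15 in B6.CAST and -0.13 ± 0.13 in 129X1/SvJ. The other Aldoa probe set, 161889_f_at, gave -0.04 ± 0.21 and -0.15 ± 0.17 in the same order of strains. Over both strains the 95% interval of the brighter probe set was -0.25 to 0.19.

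Pgk1 encodes phosphoglycerate kinase, which makes the first ATP that glycolysis returns. Its probe set 93346_at (gene on chromosome X) read 6614.8 and 4104.5 units on B6.CAST noise arrays, against 4990.7 and 4487.4 units on B6.CAST control arrays. It read 4867.5, 5956.5 and 4664.6 units on 129X1/SvJ noise arrays, against 4797.3, 4722.5 and 5787.7 units on 129X1/SvJ control arrays. The groups overlapped in both strains, and the B6.CAST noise arrays held both the highest and the lowest value of that strain. The log2 effect was 0.10 ± 0.19 in B6.CAST (95% interval -0.31 to 0.51) and 0.01 ± 0.15 in 129X1/SvJ (95% interval -0.33 to 0.34, limma adjusted p = 0.982).

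Ldha encodes the lactate dehydrogenase subunit that favours making lactate from pyruvate and so keeps glycolysis running without oxygen. Its probe set 96072_at (gene on chromosome 7) read 6435.3 and 6945.3 units on B6.CAST noise arrays, against 4760.1 and 5868.4 units on B6.CAST control arrays. It read 3821.2, 5578.8 and 4663.8 units on 129X1/SvJ noise arrays, against 4009.6, 4797.8 and 4192.0 units on 129X1/SvJ control arrays. The noise arrays were above the controls in B6.CAST, and in 129X1/SvJ they overlapped. With Ldha and Hk2, 2 of 10 member probe sets had noise arrays wholly above control arrays in B6.CAST, against 15.8% of all tested probe sets, and 0 had them wholly below, against 13.8%. The log2 noise effect was 0.29 ± 0.17 in B6.CAST (95% interval -0.09 to 0.66, limma adjusted p = 1) and 0.09 ± 0.14 in 129X1/SvJ (95% interval -0.22 to 0.40, limma adjusted p = 0.817). The B6.CAST effect was 0.15 without its first control array and 0.41 without the second.

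Between the strains, Ldha was higher in B6.CAST on every noise array, at 6690.3 ± 360.6 units in B6.CAST (n = 2) and 4687.9 ± 879.0 units in 129X1/SvJ (SD, n = 3). The log2 difference was 0.49 ± 0.16 (B6.CAST minus 129X1/SvJ, 95% interval 0.14 to 0.83, 1.40-fold), with an unadjusted limma p of 0.00996 and an adjusted p of 0.232. It was 0.36 without the first 129X1/SvJ noise array and 0.58 without the second. In control mice the difference was 0.29 ± 0.16 (limma adjusted p = 0.550), and the arrays overlapped. The summed signal of 7 stria vascularis markers differed between the strains too, at 27238.3 to 29091.9 on B6.CAST noise arrays and 19197.8 to 22009.5 on 129X1/SvJ noise arrays. It was 26682.2 to 26950.9 on B6.CAST control arrays and 19317.8 to 21733.3 on 129X1/SvJ control arrays, and its part in the Ldha difference was not tested. Much of the gap lay in Dct, at a mean of 14369 units in B6.CAST and 7978 units in 129X1/SvJ noise-exposed mice. Slc12a2 (11130 and 9462 units), Kcnq1 (741.7 and 607.2 units) and Tyr (119 and 90.6 units) were also higher in B6.CAST in these groups. Kcne1 at 1382 and 1462 units and Atp1b2 at 398.6 and 663.7 units went the other way, and Tyrp1 was dim.

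Across the strain comparisons, 0 of 10 member probe sets passed the test in noise-exposed mice, against 1.45% of all tested probe sets, and 0 passed in control mice, against 0.92%. At an unadjusted p under 0.05 there was 1 in each, Ldha in noise-exposed mice and Vegfa in control mice, against 10.6% and 11.1% of all tested probe sets. In noise-exposed mice Ldha was the 1 member probe set with B6.CAST wholly above 129X1/SvJ, against 13.2% of all, and 0 were wholly below, against 12.1%. In control mice 2 were wholly above, Vegfa and Hif1a 98629_f_at, against 13.9% of all. The log2 difference of Hif1a there was 0.19 ± 0.16. Aldoa 160090_f_at was the 1 wholly below, against 16% of all, with a log2 difference of -0.17 ± 0.14, although its signals before normalization overlapped.

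**Figure D3:**
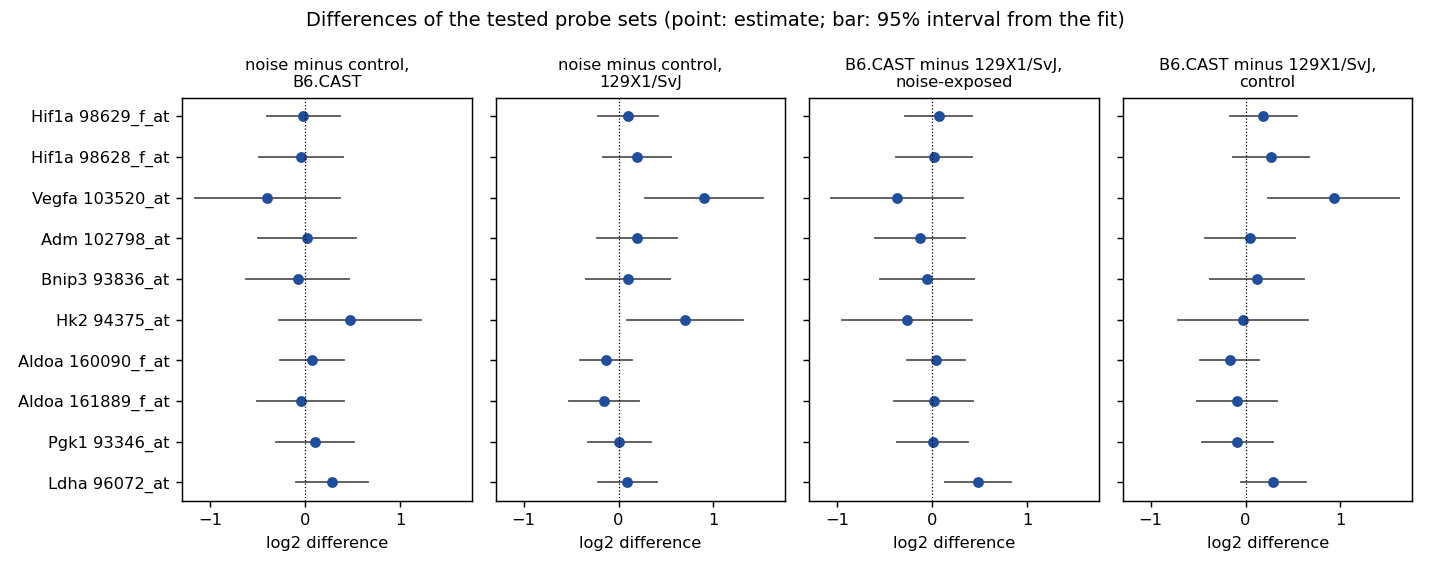
Log2 differences of the 10 tested member probe sets (rows) for noise minus control in each strain and for B6.CAST minus 129X1/SvJ in noise-exposed and control mice (panels), with a point for the estimate and a bar for the 95% interval from the fit. Intervals that leave out 0 are those of Vegfa and Hk2 for noise in 129X1/SvJ, Ldha for strain in noise-exposed mice and Vegfa for strain in controls.

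The genes around the members were described by lists, with the brightest probe set of each gene. Of 14 listed regulators of the HIF pathway, 10 were tested, and 8 had a positive and 2 a negative mean noise effect, with a median log2 change of 0.11, beside -0.02 over all tested probe sets. With the settings reported, none of the lists had a gene past the limma test for the mean noise effect. Of these 10 genes, 1 had an unadjusted limma p under 0.05, against 7.63% of all tested probe sets. That gene was Arnt, which passed the filter for dim probe sets only through its brighter groups, so nothing is read from the count. Arnt, the partner that HIF1A needs to bind DNA, read 158.4, 72.4 and 84.2 units on 129X1/SvJ noise arrays, against 10.7, 27.0 and 15.4 units on 129X1/SvJ control arrays. It read 46.4 and 146.7 units on B6.CAST noise arrays, against 131.4 and 56.5 units on B6.CAST control arrays. All 3 control arrays of 129X1/SvJ lay below the signal of 42.9 under which probe sets were left out as dim, so no fold is given for them, and Arnt was tested only through its brighter groups. The B6.CAST arrays overlapped. The prolyl hydroxylase genes Egln1 and Egln2 had mean noise effects of -0.14 ± 0.14 and 0.12 ± 0.15. Siah2, a ubiquitin ligase that degrades prolyl hydroxylases, had 0.17 ± 0.16. Vhl, the substrate-binding part of the HIF ubiquitin ligase, read 74.1 and 104.3 units on B6.CAST control arrays, against 81.9, 7.6 and 12.0 units on 129X1/SvJ control arrays. The 129X1/SvJ mean of 33.8 units lay below the same limit, and no fold is given.

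Of 20 other glycolytic enzymes, 12 were tested, and 4 had a positive and 8 a negative mean noise effect, with a median of -0.09. An unadjusted limma p under 0.05 was found for 2 of the 12, against 7.63% of all tested probe sets. These were Ldhb and Pklr. Since Pklr passed the filter for dim probe sets only through its noise arrays, nothing is read from the count. Ldhb, the lactate dehydrogenase subunit of the heart form, had -0.29 ± 0.12 (adjusted p = 0.610). Hk1, the constitutive hexokinase, had -0.29 ± 0.18 (adjusted p = 0.747), and this was -0.12 without the first 129X1/SvJ noise array. Pgam1, a phosphoglycerate mutase, had -0.18 ± 0.09, with noise arrays wholly below control arrays in both strains, as had 2.58% of all tested probe sets. Pklr, a pyruvate kinase of liver and red cells, read 134.1 and 97.6 units on B6.CAST noise arrays, against 23.6 and 19.6 units on B6.CAST control arrays. Pklr read 33.2, 133.7 and 24.1 units on 129X1/SvJ noise arrays, against 32.0, 65.3 and 21.2 units on 129X1/SvJ control arrays, so that a single noise array was high there. Both control means lay below 42.9 units, so Pklr was tested only through its noise arrays and no fold is given. Eno2 and Pfkl, an enolase and a phosphofructokinase, had log2 differences of -0.43 ± 0.17 and -0.51 ± 0.26 between B6.CAST and 129X1/SvJ control mice (limma adjusted p = 0.380 and 0.528).

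Of 17 genes for glucose and lactate transport and control of glycolytic flux, 10 were tested. A positive mean noise effect was seen for 4 and a negative one for 6, with a median of -0.09. An unadjusted limma p under 0.05 was found for 2 of the 10, against 7.63% of all tested probe sets. Pdk1 encodes a kinase that inhibits pyruvate dehydrogenase and is a known target of HIF1. It read 801.4 and 893.3 units on B6.CAST noise arrays, against 1081.5 and 1092.6 units on B6.CAST control arrays. It read 422.8, 453.2 and 425.4 units on 129X1/SvJ noise arrays, against 718.5, 731.2 and 646.1 units on 129X1/SvJ control arrays. All noise arrays lay below the controls of their strain, opposite to Hk2, as did those of 2.58% of all tested probe sets. The mean noise effect was -0.51 ± 0.11, with an unadjusted limma p of 0.000801 and an adjusted p of 0.118. Pdk1 passed the test between the strains in noise-exposed mice, where it was higher in B6.CAST by 0.97 ± 0.16 (1.95-fold, limma adjusted p = 0.0126). That call was lost without the first (adjusted p = 0.0946) or the second B6.CAST noise array (adjusted p = 0.167). Pdha1, a subunit of pyruvate dehydrogenase, which Pdk1 inhibits, had a mean noise effect of 0.26 ± 0.09 (adjusted p = 0.485).

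Pdhb, another pyruvate dehydrogenase subunit, read 3095.6 and 2876.3 units on B6.CAST noise arrays, against 1071.5, 1580.2 and 1531.6 units on 129X1/SvJ noise arrays. It read 3397.2 and 3041.8 units on B6.CAST control arrays, against 1794.5, 1620.2 and 1258.9 units on 129X1/SvJ control arrays. Pdhb was higher in B6.CAST by 1.08 ± 0.19 with noise (2.11-fold, limma adjusted p = 0.0168) and by 1.03 ± 0.19 in controls (2.04-fold, limma adjusted p = 0.0316). The call in noise-exposed mice was lost without either B6.CAST noise array (adjusted p = 0.180 and 0.158). That in controls was lost without either B6.CAST control array (adjusted p = 0.285 and 0.156) or 129X1/SvJ control array 2 or 3 (adjusted p = 0.0997 and 0.121). Slc2a1, the glucose transporter GLUT1, had a mean noise effect of 0.17 ± 0.13, and Pdk4, a kinase of the same family as Pdk1, had 0.66 ± 0.33, with 1465.7 units on the first 129X1/SvJ noise array and an effect of 0.39 without it.

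Of 32 other hypoxia-induced genes, 21 were tested, and 15 had a positive and 6 a negative mean noise effect, with a median of 0.08. An unadjusted limma p under 0.05 was found for 4 of the 21, against 7.63% of all tested probe sets. Bhlhe40, a transcriptional repressor that also serves the circadian clock, read 1003.5 and 633.0 units on B6.CAST noise arrays, against 420.1 and 533.2 units on B6.CAST control arrays. It read 1561.1, 796.2 and 1010.4 units on 129X1/SvJ noise arrays, against 407.8, 578.6 and 405.5 units on 129X1/SvJ control arrays, and its mean effect was 0.98 ± 0.21 (limma adjusted p = 0.115). Like Hk2, it was wholly above controls in both strains, as were 2.69% of all tested probe sets. Hmox1, which breaks down haem and responds to oxidative stress as well as low oxygen, was also wholly above controls in both strains, with a mean effect of 0.49 ± 0.12 (limma adjusted p = 0.188). It read 1245.2 and 1205.7 units on B6.CAST noise arrays, against 972.5 and 991.9 units on B6.CAST control arrays. It read 1192.3, 1688.2 and 1355.7 units on 129X1/SvJ noise arrays, against 796.7, 936.4 and 935.5 units on 129X1/SvJ control arrays. Lox, which crosslinks collagen, had 0.53 ± 0.21, and Cxcr4, a chemokine receptor, had -0.53 ± 0.23 (limma adjusted p = 0.592 and 0.610).

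Igfbp3, which binds insulin-like growth factors, was the gene of this list that passed between the strains. It read 171.0 and 98.3 units on B6.CAST noise arrays, against 519.8, 361.4 and 477.7 units on 129X1/SvJ noise arrays. It read 88.6 and 73.0 units on B6.CAST control arrays, against 655.9, 642.6 and 349.0 units on 129X1/SvJ control arrays. Its log2 difference was -1.64 ± 0.33 with noise (limma adjusted p = 0.0304) and -2.45 ± 0.33 in controls (limma adjusted p = 0.00383). The control call was lost without either B6.CAST control array (adjusted p = 0.0681 and 0.0549), and the call in noise-exposed mice was kept in 3 of the 10 fits that each left out 1 array. The second Igfbp3 probe set, 95083_at, did not show this in controls, with a difference of 0.41 there and -1.43 with noise. Ccng2, a cyclin linked to growth arrest, had a control difference of 0.92 ± 0.22 (limma adjusted p = 0.0933).

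Of 17 ligands and receptors of the VEGF and adrenomedullin systems, 13 were tested. A positive mean noise effect was seen for 8 and a negative one for 5, with a median of 0.02. An unadjusted limma p under 0.05 was found for 1 of the 13, against 7.63% of all tested probe sets. Ramp1, which joins the calcitonin receptor-like receptor to form the receptor for the peptide CGRP, had -0.55 ± 0.17 (limma adjusted p = 0.361). It read 328.6 and 396.1 units on B6.CAST noise arrays, against 598.6 and 511.0 units on B6.CAST control arrays. It read 611.0, 372.9 and 379.8 units on 129X1/SvJ noise arrays, against 599.4, 674.9 and 649.8 units on 129X1/SvJ control arrays, with 1 noise array among the controls. The VEGF receptor genes Flt1 and Flt4 had 0.13 ± 0.13 and 0.18 ± 0.26, and Pgf, a ligand of FLT1, had 0.12 ± 0.18. A dimmer Flt1 probe set, 98453_at, had a mean noise effect of 0.31 ± 0.22. Its effect was 0.80 ± 0.28 in 129X1/SvJ (limma adjusted p = 0.354) and -0.18 ± 0.34 in B6.CAST. Between the strains, 11 of the 13 had a negative difference in noise-exposed mice, with a median of -0.26, beside 0.02 over all tested probe sets. The count was again 11 in control mice, with a median of -0.32, beside -0.05, and 0 passed the limma test in either. In control mice these included Ramp2, the adrenomedullin receptor partner, at -1.07 ± 0.22 (limma adjusted p = 0.0505), and Vegfb, a relative of Vegfa, at -0.32 ± 0.17 (limma adjusted p = 0.543).

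**Figure D4:**
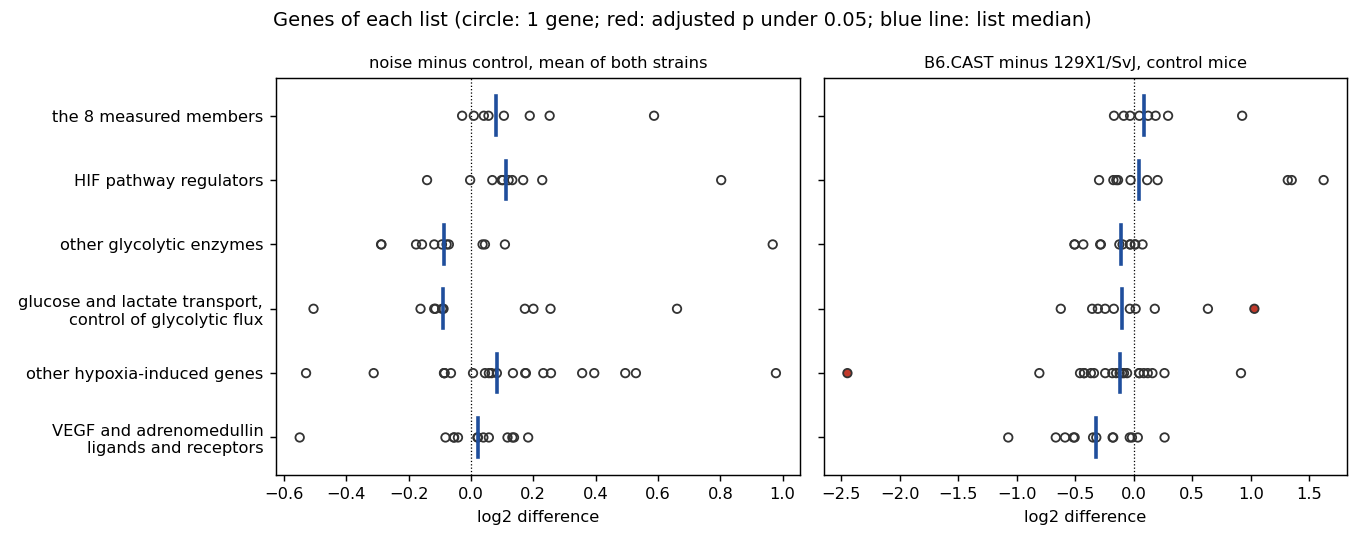
Log2 differences of the tested genes of the members and of each pathway list (rows), for noise minus control as the mean of both strains and for B6.CAST minus 129X1/SvJ in control mice (panels), with a circle for each gene, red where the limma adjusted p was under 0.05, and a blue line at the list median. The red circles are Pdhb and Igfbp3 in the strain panel, and no circle is red for noise.

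The tested probe sets whose log2 values over the 10 arrays were most like those of 3 members were listed as a description, since all points share the arrays and the groups. For Vegfa they were Nfatc3, Ubqln1 and Hspa4, with Pearson r of 0.9545, 0.940 and 0.939. For Adm they were Nkain1, Dusp16 and Daxx, with r of 0.945, 0.920 and 0.878. For Hif1a they were Tjp1, Zranb2 and Jagn1, with r of 0.939, 0.901 and 0.883.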

How the data were processed

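Each deposited value is the linear intensity of a probe set on one of 10 one-colour Affymetrix arrays. The authors appear to have scaled each array, since the mean without the lowest and highest 2% lay between 500.27 and 500.30 on all. Which software did so is not given in the sources used here. Detection flags were not used. Of 12488 probe sets, 66 are controls, 10855 have 1 gene symbol, 396 several and 1237 none here; 10839 of those with 1 symbol matched the RefSeq table of GRCm38.p6. A pair of sample titles spells the strain 129XI/SvJ, and both were kept with 129X1/SvJ.

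From the deposited intensities, log2(intensity + 16) was computed, which understates changes of dim genes, and quantile normalized. Controls and the dimmest 30% were left out (below a signal of 42.9), leaving 8695 probe sets. A model of 4 group means over 10 arrays was fitted with limma 3.58.1 in R 4.3.3, with trended moderation and Benjamini-Hochberg adjustment at 0.05. The fit was tested on simulated data. The number of arrays limits the precision. Members of every list were chosen with earlier results of these data known. Of each list, the text names up to 4 genes of smallest p for the mean noise effect, up to 2 for strain in controls, and every gene past the threshold. Gapdh was left out of the lists, since its probe sets are controls or name several genes. Alternatives changed the pseudocount, normalization, filter, array weights, arrays used and replicate block.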

Additional observations from a re-analysis of the deposited data

How the results depend on the processing

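Under every alternative run, 0 of the 10 member probe sets passed the limma test in any of the 6 comparisons, and the smallest adjusted p of a member was 0.125. Counts over all tested probe sets moved more. The count for noise in B6.CAST, 4 with all settings as reported, was 2 with a pseudocount of 1, 1 with no filter, 7 with array weights, 0 without the arrays of high Gapdh ratio, 2 with the replicate block and 0 with only the groups compared. Noise in 129X1/SvJ called 71 with array weights and 22 without the high-Gapdh arrays, against 44, and the mean noise effect called 10 without those arrays, against 40. Strain in noise-exposed mice called 192 with weights, 26 without the high-Gapdh arrays, 44 with the replicate block and 53 with only the groups compared, against 126. Strain in control mice called 139, 36, 34 and 154 under the same settings, against 80. Leaving out each array in turn gave 22 to 46 calls for noise in 129X1/SvJ, 0 to 5 in B6.CAST, 18 to 47 for the mean, 0 for the difference, 26 to 122 for strain with noise and 23 to 132 for strain in controls.

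Of 1010 alternative values of members, 79 changed sign, nearly all of values smaller than their standard error. Values larger than their error that changed sign were, without the high-Gapdh arrays, Vegfa for noise in B6.CAST (0.0066) and strain in noise-exposed mice (0.0349), and Aldoa 160090_f_at for the difference of noise effects (-0.0455). When single arrays were left out, Vegfa ran from -0.80 to 0.0057 for noise in B6.CAST and from -0.774 to 0.0324 for strain in noise-exposed mice. Slc2a1 ran from -0.0105 to 0.6683 for noise in B6.CAST and from -0.0279 to 0.6517 for the difference. Same-numbered arrays did not deviate together, with correlations of their deviations from -0.389 to 0.140, so the numbers are not read as pairs. With the replicate block, the smallest adjusted p of a member was 0.238, and Pdk1, Pdhb and Igfbp3 lost their calls in noise-exposed mice (adjusted p = 0.0838, 0.0925 and 0.0648), as did Pdhb in controls (0.163). Those calls in noise-exposed mice were also lost without the high-Gapdh arrays (0.206, 0.265 and 0.0897) and with only the groups compared (0.100, 0.0746 and 0.0979). Pdhb in controls was lost without the high-Gapdh arrays (0.143), and Igfbp3 in noise-exposed mice with no filter (0.0595). A crossed replicate block in B6.CAST, chosen after seeing the data, called 2. Some list genes gained a call under an alternative. For noise in 129X1/SvJ, Hmox1 and Pdk1 each passed the limma test under 1 of 17 alternatives. Ramp1 passed for the mean noise effect under 1 of 16, a fit with an array left out. For strain in control mice, Ramp2 passed under 3 of 17.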
